A study of Mus musculus with 6 samples.

Results

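Fat depots of the mouse differ in the genes their adipocytes express, and a small set of these genes serves to tell a classical brown adipocyte from a beige or a white one. The 10 depot markers examined here were taken from that set by name: Zic1, Lhx8, Mpzl2, Kcnk3, P2rx5 and Slc36a2 mark classical brown adipocytes, Tmem26, Tbx1 and Cited1 mark beige adipocytes and Slc7a10 marks white adipocytes. They are 10 of the 22466 genes that had a RefSeq transcript in the data. Each had exactly 1 RefSeq transcript in the data.

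RNA sequencing was used to measure transcript abundance in primary brown adipocytes, cells that were isolated as precursors from the stromal-vascular part of interscapular brown adipose tissue and then differentiated in the dish. The donors were male mice of the strain labelled 129SvEvS1, aged 5 to 6 weeks, either wildtype (WT, cultures 10, 11 and 12) or lacking Ucp1 (Ucp1-KO, cultures 13, 14 and 15) on that same background. All 6 cultures received the same adipogenic mixture for 2 d, which included rosiglitazone, T3, insulin, dexamethasone, indomethacin and isobutylmethylxanthine. Rosiglitazone, T3 and insulin stayed in the medium during the following 7 d of differentiation, after which the cells were harvested. The knockout is carried by every cell of the mouse, so that precursors had lacked Ucp1 before they were isolated. How many mice contributed to a culture is not given in the sources used here.

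Classical brown adipocytes of the interscapular depot descend from precursors that are related to skeletal muscle, whereas beige adipocytes arise within white depots upon cold or adrenergic stimulation. Both kinds burn fat to make heat through UCP1, the uncoupling protein of the inner mitochondrial membrane, and therefore share the thermogenic genes. Depot markers are used in addition because they differ between these cells even where the thermogenic genes do not. Some are transcription factors that reflect the position of the precursor in the body, and others are proteins of the cell surface.

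Values are given in RPKM, read numbers scaled to the length of the transcript and to the mapped reads of the culture, and can be compared between transcripts because of the scaling to length. The totals behind them, computed from the RPKM steps of single reads, lay between 14989604 and 17727652 reads per culture. Ucp1 itself lay between 981 and 1775 RPKM in the WT cultures and between 307 and 409 RPKM in the Ucp1-KO cultures, where an untranslated remnant is still transcribed, so that the labels and the targeted gene went together. Of the 7 general adipocyte markers all were tested, and their summed abundance was 30479 to 32443 RPKM in WT against 31933 to 33666 RPKM in Ucp1-KO, most of it Fabp4, the fatty acid binding protein of adipocytes. The 8 thermogenic markers without Ucp1, led by Cidea, a protein of the lipid droplet, summed to between 1814 and 2031 RPKM in WT and between 1680 and 2700 RPKM in Ucp1-KO. The sums were carried by a few genes, and the thermogenic list also held Prdm16 at 2.44 to 3.28 RPKM and Dio2 at 0.866 to 1.56 RPKM. All 7 adipocyte markers and 7 of the 8 thermogenic markers were higher in Ucp1-KO, beside 8369 of all 16865 transcripts tested. Limma called 0 of them at an adjusted p under 0.05, beside 0% of all transcripts, and 0 at an unadjusted p under 0.05, beside 5.54%.

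Of the 10 depot markers, 8 were present, defined as at least 3 reads in every culture and an average abundance no lower than 0.5 RPKM. All 6 classical brown markers were among them, together with 1 of the 3 beige markers, Cited1, and the white marker Slc7a10. The beige markers Tmem26 and Tbx1 were not. By mean abundance the order was Slc36a2, Kcnk3, P2rx5, Slc7a10, Mpzl2, Zic1, Lhx8, Cited1, Tmem26 and Tbx1. This is a wide span, from rank 204 of the 28890 RefSeq transcripts for Slc36a2 to rank 20399 for Tbx1. Neighbours in the order were separated, with no overlap of their 6 values, at only 3 places. Slc36a2 was 6.75 times as abundant as Kcnk3, Kcnk3 was 3.57 times as abundant as P2rx5 and Cited1 was 16.0 times as abundant as Tmem26. From P2rx5 down to Cited1 each marker overlapped with the next, and P2rx5 exceeded Slc7a10 in each of the 6 cultures although their ranges overlapped.

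**Figure D1:**
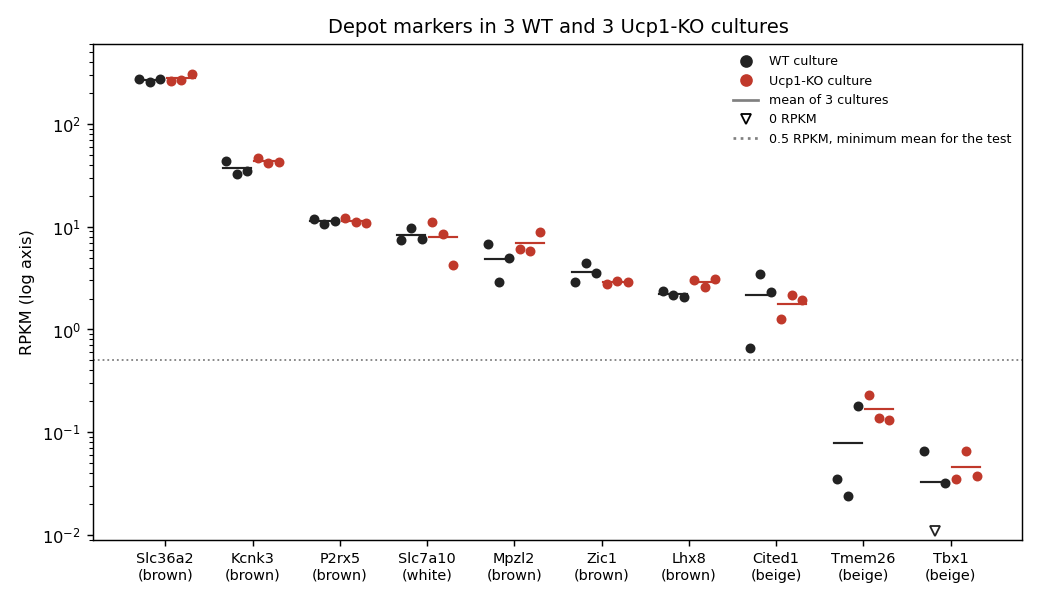
Abundance of the 10 depot markers in RPKM (log axis) with 1 point per culture, WT and Ucp1-KO in different colours, and markers ordered by their mean. Short lines are means of 3 cultures and the dotted line is the minimum of 0.5 RPKM. Slc36a2 lies between 255 and 307 RPKM, neighbours from P2rx5 to Cited1 overlap, and Tmem26 and Tbx1 reach no more than 0.233 RPKM.

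Slc36a2, Kcnk3, P2rx5 and Mpzl2 are the classical brown markers of the cell surface, and they included the most abundant depot markers. Slc36a2, also known as PAT2, is a proton-coupled transporter of small amino acids on chromosome 11 (chr11:55158470-55185077, minus strand, GRCm38). Its abundance was 271, 255 and 277 RPKM in WT 10, 11 and 12, and 259, 269 and 307 RPKM in Ucp1-KO 13, 14 and 15. The genotypes overlapped, and only Ucp1-KO 15 lay above all WT cultures. These values rest on 10173 to 11918 reads per culture. The means were 267 ± 11.4 RPKM in WT against 278 ± 25.3 RPKM in Ucp1-KO (SD, n = 3).

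Kcnk3 encodes TASK-1, a potassium channel of the K2P family that is active at rest (chr5:30588170-30625271, plus strand). It was measured at 43.6, 32.3 and 35.0 RPKM in WT and at 46.9, 41.8 and 42.8 RPKM in Ucp1-KO. WT 10 lay among the Ucp1-KO cultures, whereas WT 11 and 12 lay below all of them. P2rx5 encodes a cation channel opened by extracellular ATP (chr11:73160421-73172685, plus strand). Its values of 11.9, 10.7 and 11.4 RPKM in WT and 12.1, 11.03 and 10.8 RPKM in Ucp1-KO were interleaved. P2rx5 was the steadiest of the depot markers, and only 10.4% of all tested transcripts had a smaller SD within the genotypes on the log2 scale. The ratio of Kcnk3 to P2rx5 was 3.65, 3.03 and 3.08 in the WT cultures and 3.89, 3.79 and 3.97 in the Ucp1-KO cultures. This pair was chosen and its ratio was not tested, and neither gene alone separated the genotypes.

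Mpzl2, also called Eva1, is an adhesion protein of the immunoglobulin superfamily (chr9:45039799-45054015, plus strand). It varied far more than the other surface markers of brown adipocytes, with 6.76, 2.89 and 4.98 RPKM for WT and 6.06, 5.81 and 8.90 RPKM for the knockout. WT 11 was the lowest and Ucp1-KO 15 the highest culture, 3.08 times apart. WT 10 lay within the Ucp1-KO range. Of the 6968 annotated exon bases of Mpzl2, 2138 are also covered by an unclassified gene on the opposite strand, Gm48840. The library kit does not mark the strand, so reads of these bases could come from either gene.

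Zic1 and Lhx8 are transcription factors, a zinc finger protein and a LIM homeodomain protein with roles in the patterning of the embryo, and both were present at a low level in every culture. Zic1 (chr9:91358058-91365810, minus strand) was measured at 2.92, 4.42 and 3.52 RPKM in WT and at 2.77, 2.96 and 2.93 RPKM in Ucp1-KO. The WT cultures spread widely, and WT 10 lay within the narrow Ucp1-KO range. Lhx8 (chr3:154306294-154330659, minus strand) was measured at 2.37, 2.18 and 2.08 RPKM in WT and at 3.01, 2.61 and 3.10 RPKM in Ucp1-KO. It was the only depot marker whose genotypes did not overlap. The difference rests on few reads, 80, 72 and 73 in WT against 96, 89 and 92 in Ucp1-KO.

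The DNA in front of 4 markers for which RefSeq gives a single start is printed as their sequence context, for present markers (Zic1, Lhx8, Slc7a10) and for a marker that was not present (Tmem26). Each runs 5′ to 3′ in the direction of the gene, ends before the first annotated base, and has its CpG dinucleotides in capitals. Coordinates and bases are those of RefSeq on GRCm38.p6: 208 bases at chr9:91365811-91366018 (minus strand) for Zic1, 151 bases at chr3:154330660-154330810 (minus strand) for Lhx8, 250 bases at chr7:35186135-35186384 (plus strand) for Slc7a10 and 150 bases at chr10:68723496-68723645 (plus strand) for Tmem26.
Zic1: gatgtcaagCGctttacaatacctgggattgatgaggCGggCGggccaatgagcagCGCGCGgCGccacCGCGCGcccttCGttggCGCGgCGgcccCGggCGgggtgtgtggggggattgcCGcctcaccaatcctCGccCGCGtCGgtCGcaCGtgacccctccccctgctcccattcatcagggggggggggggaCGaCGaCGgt
Lhx8: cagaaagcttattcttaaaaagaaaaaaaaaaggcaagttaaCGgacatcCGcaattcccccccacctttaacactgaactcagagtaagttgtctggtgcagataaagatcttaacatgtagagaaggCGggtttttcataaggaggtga
Slc7a10: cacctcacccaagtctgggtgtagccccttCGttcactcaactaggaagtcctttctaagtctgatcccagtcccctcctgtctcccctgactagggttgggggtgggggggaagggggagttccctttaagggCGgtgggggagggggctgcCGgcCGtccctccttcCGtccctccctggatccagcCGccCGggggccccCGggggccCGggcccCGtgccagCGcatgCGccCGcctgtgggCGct
Tmem26: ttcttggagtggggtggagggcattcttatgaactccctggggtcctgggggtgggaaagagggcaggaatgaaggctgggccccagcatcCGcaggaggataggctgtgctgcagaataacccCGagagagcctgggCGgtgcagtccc
In the full window of 250 bases before the RefSeq start, Zic1 holds 27 CpG, more than 91.4% of the 32851 mouse promoters in RefSeq, which have a median of 6. Slc7a10 holds 14 CpG, Tmem26 holds 6 and Lhx8 holds 4. The letters CCCNNGGG, which read alike on both strands and were searched with overlaps allowed, occur 4 times before Slc7a10, 1 time before Tmem26 and 0 times before Zic1 and Lhx8. They occur in 11.8% of all promoters. The letters TATAAA, searched on both strands, occur before none of these 4 genes (0 times) and in 12.4% of all promoters, and TGACG likewise occurs 0 times, against 17.8%. The DR1 repeat of nuclear receptors also occurs 0 times, against 0.0335%. Before the outermost start of Cited1, a window of 250 bases with 13 CpG, TATAAA and CCCNNGGG occur 1 time each, and before that of Tbx1, with 10 CpG, TGACG occurs 1 time. Of the 10 markers, 6 were matched to the promoter table.

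The beige markers gave a different picture from the brown ones. Cited1 encodes a coactivator that binds CBP and p300 (chrX:102247381-102252181, minus strand). Its abundance was 0.661, 3.50 and 2.31 RPKM in WT and 1.27, 2.14 and 1.92 RPKM in Ucp1-KO. Both the lowest and the highest culture were WT, 5.30 times apart, and all Ucp1-KO cultures lay between them. The reads behind these values numbered 11, 57 and 40 in WT and 20, 36 and 28 in Ucp1-KO. Of the tested transcripts, 95.9% had a smaller SD within the genotypes than Cited1.

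Tmem26, a transmembrane protein used as a surface marker of beige cells (chr10:68723646-68782650, plus strand), had 3, 2 and 16 reads in WT and 19, 12 and 10 reads in Ucp1-KO. This corresponded to 0.0348, 0.0237 and 0.179 RPKM and to 0.233, 0.138 and 0.132 RPKM. WT 10 and 11 were at or under the floor of 3 reads, and WT 12 lay within the Ucp1-KO range. Tbx1, a T-box transcription factor (chr16:18580979-18590671, minus strand), had 2, 0 and 1 reads in WT and 1, 2 and 1 reads in Ucp1-KO. All 6 cultures were thus under the floor, which for Tbx1 corresponds to between 0.0952 and 0.113 RPKM, and no difference between genotypes was detectable at this depth. The floor covers counting error only, since reads that carry no molecular identifier can stem from the same molecule.

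The white marker Slc7a10 was present in all cultures. It encodes ASC-1, an exchanger of small neutral amino acids that works in complex with the heavy chain Slc3a2 (chr7:35186385-35201114, plus strand). Its abundance was 7.45, 9.80 and 7.58 RPKM in WT and 11.2, 8.48 and 4.28 RPKM in Ucp1-KO. Both extremes were Ucp1-KO cultures, 2.62 times apart, and the WT cultures lay between them. Slc7a10 was thus more abundant than 3 of the 6 classical brown markers, Mpzl2, Zic1 and Lhx8, by its mean, although its range overlapped with those of Mpzl2 and Zic1. Of its 2111 annotated exon bases, 377 are shared with Lrp3 on the opposite strand, which had between 398 and 534 reads per culture against 125 to 353 for Slc7a10. The abundance of Slc3a2 was 35.1, 49.0 and 44.2 RPKM in WT and 30.0, 38.9 and 39.3 RPKM in Ucp1-KO.

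Slc36a2 and Slc7a10, the brown and the white marker, are both transporters of small amino acids and could be set against each other within a culture. The ratio of Slc36a2 to Slc7a10 was 36.4, 26.0 and 36.5 in WT and 23.1, 31.7 and 71.8 in Ucp1-KO. The brown transporter was far more abundant in every culture. Both the lowest and the highest ratio were Ucp1-KO cultures. The high ratio of Ucp1-KO 15 combined the highest Slc36a2 with the lowest Slc7a10 of the 6 cultures.

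The comparison of WT with Ucp1-KO cultures asks whether the loss of Ucp1 goes along with a different depot character of the adipocytes. None of the 8 depot markers tested passed the adjusted threshold (limma on log2(RPKM + 1), Benjamini-Hochberg adjusted p between 0.868 and 0.997). Neither did any other transcript, since 0% of the 16865 RefSeq transcripts tested passed. This includes Ucp1 itself, which had 28.4% of the WT level in Ucp1-KO with no overlap (log2 difference −1.78, limma unadjusted p 0.000157, adjusted p 0.868). A failure to pass this test therefore does not show that a marker was equal in both genotypes. The study's own comparison with DESeq2 did report differential genes, with Ucp1 among them and none of these 8 markers. Of the 8 markers 4 were higher and 4 were lower in Ucp1-KO, with directions taken from the mean log2 values and a median log2 difference of 0.03 against −0.0016 for all transcripts tested. At an unadjusted p under 0.05, limma called 1 of the 8, Lhx8, beside 5.54% of all transcripts, and beside 2.3% when only those higher in Ucp1-KO are counted. Likewise, 1 of 8 did not overlap between genotypes, beside 11.2% of all transcripts (6.04% with Ucp1-KO higher and 5.15% with it lower). With 8 markers, 1 is close to what either background share gives.

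Lhx8 was the marker closest to a difference, with 2.21 ± 0.146 RPKM among WT and 2.91 ± 0.261 RPKM among Ucp1-KO cultures (SD, n = 3). Ucp1-KO thus had 131% of the WT level by mean RPKM. On log2(RPKM + 1) the difference was 0.28, with a standard error of 0.11 and a 95% interval from 0.03 to 0.54. The added 1 makes this difference smaller than the RPKM values alone would give. The unadjusted p by limma was 0.0348 and the adjusted p 0.868. The exact two-sided permutation test gave p = 0.1, which is the smallest value possible with 3 against 3 cultures. Limma-voom on the recovered reads gave an unadjusted p of 0.0607, and it called 5.3% of all transcripts but 0 depot markers at an unadjusted p under 0.05.

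The other classical brown markers lay on both sides of equality. Mpzl2 was 4.88 ± 1.94 RPKM in WT against 6.92 ± 1.72 RPKM in Ucp1-KO, a log2 difference of 0.47 with an interval from −0.18 to 1.11. Kcnk3 was 37.0 ± 5.88 RPKM and 43.8 ± 2.72 RPKM, a log2 difference of 0.25 (−0.05 to 0.55). Zic1 was 3.62 ± 0.754 RPKM and 2.89 ± 0.101 RPKM, a log2 difference of −0.24 (−0.57 to 0.09). None of the 3 passed the test, but the intervals still allow differences of the size measured for Lhx8. For Slc36a2, with a log2 difference of 0.05 (−0.19 to 0.30), the interval only just reaches the Lhx8 estimate. The added 1 RPKM lowers the Lhx8 estimate, since Lhx8 is at a low level. With 0.1 RPKM added in place of 1, the Lhx8 estimate was 0.38, above the upper end for Slc36a2. Without WT 11 the differences were 0.20 for Mpzl2, 0.16 for Kcnk3, −0.12 for Zic1 and 0.020 for Slc36a2. Without Ucp1-KO 15 they were 0.30 for Mpzl2 and −0.018 for Slc36a2, and without Ucp1-KO 13 it was 0.10 for Slc36a2. P2rx5, with −0.0027 (−0.22 to 0.22), had the narrowest interval of the 8, and it does not reach the Lhx8 estimate. Its direction turned in 4 of the 6 fits that leave out a culture, with values from −0.047 to 0.033.

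For Slc7a10 the log2 difference was −0.12 (−0.83 to 0.59), from 8.28 ± 1.32 RPKM in WT against 7.99 ± 3.49 RPKM in Ucp1-KO. For Cited1 it was −0.08 (−0.93 to 0.76), from 2.16 ± 1.43 RPKM and 1.78 ± 0.452 RPKM. These are the widest intervals among the markers tested, and neither direction nor size of either difference can be read from 3 cultures a genotype. Single cultures decided the direction of both, since Slc7a10 was 0.22 higher in Ucp1-KO without Ucp1-KO 15, and Cited1 was 0.23 higher without WT 11, 0.01 higher without WT 12 and 0.05 higher without Ucp1-KO 13. Without WT 10, limma called 4 markers at an unadjusted p under 0.05 beside 10.4% of all transcripts, namely Kcnk3 (0.0108), Mpzl2 (0.0337), Zic1 (0.0361) and Lhx8 (0.0413). It called 0 markers without WT 11 (background 1.87%), WT 12 (2.61%), Ucp1-KO 13 (9.15%) or Ucp1-KO 15 (5.18%), and Lhx8 alone without Ucp1-KO 14 (3.57%). No marker passed the adjusted threshold in any of these fits.

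**Figure D2:**
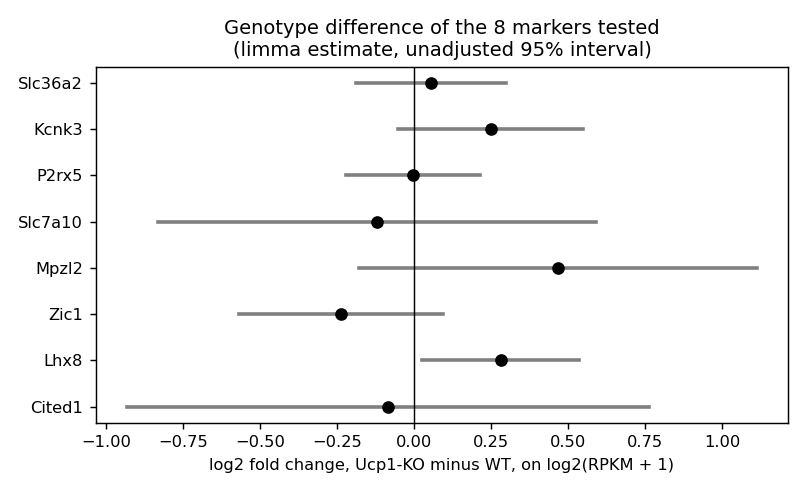
Log2 difference of Ucp1-KO minus WT with its 95% interval for the 8 depot markers tested by limma. Dots are the estimates on the log2(RPKM + 1) scale from 3 WT and 3 Ucp1-KO cultures and lines their unadjusted intervals. Only the interval of Lhx8 (0.03 to 0.54) lies off 0, and its adjusted p was 0.868.

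Each depot marker but Tmem26 belongs to a family of related genes, and the markers differed in how far they stood out among their relatives. The marker was the most abundant gene in 5 of 9 families. Among the Slc36 transporters, Slc36a2 made up 97.0 ± 0.393% of the summed RPKM (SD over 6 cultures), followed by Slc36a1 with 4.94 RPKM. Kcnk3 made up 93.3 ± 1.11% of the K2P potassium channels, Zic1 88.8 ± 3.93% of the Zic family and Lhx8 86.4 ± 5.19% of the LIM homeodomain family. In the last of these, no other gene had a mean above 0.0896 RPKM, the value of Lmx1b. Mpzl2 led the myelin protein zero family with 61.2 ± 14.5%, or 48.8% over all RefSeq rows, but in WT 11 it was below Mpzl1, at 2.89 against 4.45 RPKM.

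The beige and white markers were not the leading genes of their families. Cited1 made up 13.9 ± 5.22% of its family, behind Cited2 with 10.7 RPKM, a broadly expressed relative. Slc7a10 made up 17.9 ± 3.98% of the Slc7 amino acid transporters, behind Slc7a6 with 17.1 RPKM. Tbx1 was in place 9 of 17 T-box genes with 0.208% of the sum, whereas Mga reached 7.14 RPKM, Tbx15 5.27 RPKM and Tbx18 3.08 RPKM. The brown marker P2rx5 was also second, since P2rx4 exceeded it in all 6 cultures, at 16.2 RPKM against 11.3 RPKM on average. Of the 72 relatives in these families 25 were abundant enough for a test, and limma called 0 at an adjusted p under 0.05, beside 0% of all transcripts, and 0 at an unadjusted p under 0.05, beside 5.54%. The smallest unadjusted p was 0.0888, for Slc36a4, with 10 genes higher and 15 lower in Ucp1-KO by their mean log2 value. Kcnk6, counted as lower, was higher by its mean RPKM (0.4997 in WT, 0.5179 in Ucp1-KO).

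**Figure D3:**
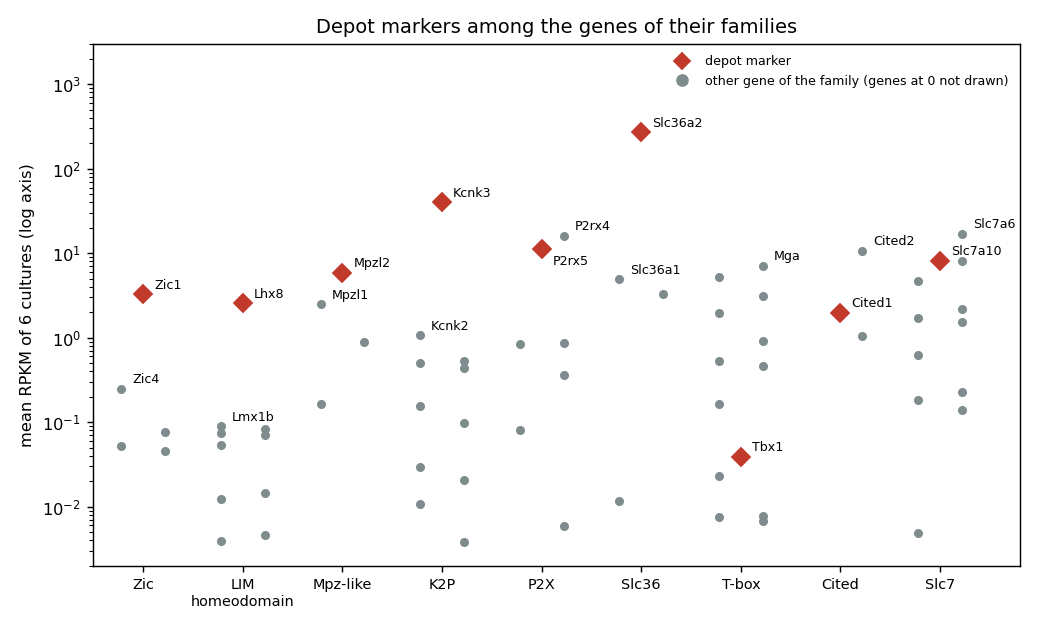
Mean RPKM over the 6 cultures (log axis) of each depot marker (diamonds) and of the other genes of its family (circles), by family, where K2P stands for the potassium channels around Kcnk3 and P2X for the ATP-gated channels. Slc36a2, Kcnk3, Zic1, Lhx8 and Mpzl2 lead their families, whereas Cited1, P2rx5, Slc7a10 and Tbx1 have a more abundant relative.

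A further 26 genes that have been used as brown, beige or white markers were taken from 3 lists. Of these 17 were tested, 0 passed the adjusted threshold, 9 were higher and 8 were lower in Ucp1-KO, and the median log2 difference was 0.02. Of the 8 brown ones 6 were tested, with Pdk4, a kinase that restrains pyruvate dehydrogenase, at 244 RPKM, Oplah, an enzyme of the glutathione cycle, at 53.6 RPKM and Ebf2, a transcription factor of brown precursors, at 22.9 RPKM. Epsti1 was not tested and Myf5, a myogenic factor of the brown lineage, was listed at 0 in all cultures. Of the 9 beige ones 5 were tested, with Slc27a1, a fatty acid transporter, at 46.3 RPKM, Car4, a carbonic anhydrase, at 11.5 RPKM and Klhl13 at 3.13 RPKM. Tnfrsf9, Hoxc9, Ear2 and Cd40 were too low for the test. Of these, Hoxc9 had 12, 12 and 16 reads in WT and 6, 7 and 8 reads in Ucp1-KO. Of the 9 white ones 6 were tested, with the hormone resistin (Retn) at 42.0 RPKM, Psat1, an enzyme of serine synthesis, at 36.1 RPKM and angiotensinogen (Agt) at 27.8 RPKM. Leptin (Lep), Tcf21 and Hoxc10 were not abundant enough for a test.

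The only one of these 17 genes with an unadjusted p under 0.05 was Hoxc8, a homeobox gene of the posterior body used as a white marker. Its abundance was 6.97, 7.16 and 11.1 RPKM in WT and 4.18, 6.86 and 5.55 RPKM in Ucp1-KO. The genotypes did not overlap, as was the case for 5.15% of all transcripts with Ucp1-KO lower, and WT 10 and Ucp1-KO 14 were close to each other. The log2 difference was −0.52 with a standard error of 0.22, at an unadjusted p of 0.048 and an adjusted p of 0.868 by limma. In the background, 3.24% of all transcripts were lower in Ucp1-KO at an unadjusted p under 0.05.

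The depot markers varied between cultures of one genotype, and so did transcripts of other cell types. The 11 markers of preadipocytes and stromal cells, led by the collagen Col1a1, summed to 878, 1970 and 1186 RPKM in WT and to 1184, 1073 and 772 RPKM in Ucp1-KO. Most of the sum in WT 11 came from Col3a1 (718 RPKM), Col1a1 (568 RPKM) and Postn (264 RPKM). Ly6a was highest in Ucp1-KO 14 and Dlk1 in Ucp1-KO 15, whereas the rest of the list was highest in WT 11. WT 11, the culture with the largest sum, had the highest Cited1 and Zic1 and the lowest value of all 4 brown surface markers. Ucp1-KO 15, the culture with the smallest sum, had the highest Slc36a2, Mpzl2 and Lhx8 and the lowest Slc7a10. All 10 stromal markers tested were lower in Ucp1-KO by their mean log2 value, beside 8496 of all 16865 transcripts tested. By mean RPKM, however, Ly6a was higher in Ucp1-KO (114 in WT, 122 in Ucp1-KO). Dlk1, too low for the test, was also higher by its mean RPKM (0.228 in WT, 0.431 in Ucp1-KO). Of the 10, limma called 2 (Lum and Dcn) at an unadjusted p under 0.05, beside 3.24% of all transcripts that were lower in Ucp1-KO. In bulk RNA, fewer cells of a type and less RNA per cell cannot be told apart. The part of these cells in the marker values was not tested.

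The 6 macrophage markers with a transcript in the data, led by lysozyme (Lyz2), summed to 68.8, 228 and 130 RPKM in WT and to 192, 974 and 44.6 RPKM in Ucp1-KO. Ucp1-KO 14 stood far above the other cultures. It was neither the highest nor the lowest culture for any of the 8 depot markers present. The 6 endothelial markers, led by Pecam1, summed to 2.47, 29.7 and 13.997 RPKM in WT and to 6.17, 13.5 and 5.55 RPKM in Ucp1-KO. WT 10 with the least and WT 11 with the most were also the lowest and the highest culture for Cited1. The 8 skeletal muscle markers, led by Acta1, summed to between 2.52 and 12.7 RPKM and included Myf5 at 0, and the 5 Schwann cell markers, led by S100b, to between 15.8 and 19.8 RPKM. By their mean log2 value, all 6 macrophage markers tested were higher in Ucp1-KO, beside 8369 of all 16865 transcripts tested. All 4 endothelial markers tested were lower, beside 8496. However, both the highest and the lowest macrophage sum were Ucp1-KO cultures, and both the highest and the lowest endothelial sum were WT cultures. Of the genes in these lists that were tested, limma called none at an adjusted p under 0.05, and at an unadjusted p the stromal pair above and Tnnt3 of skeletal muscle, beside 2.3% of all transcripts that were higher in Ucp1-KO. Tnnt3 had 1, 0 and 1 reads in WT and 16, 1 and 10 reads in Ucp1-KO, so that 2 cultures carry its value and its mean of 0.613 RPKM. How far these cells bear on the depot markers was not tested.

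**Figure D4:**
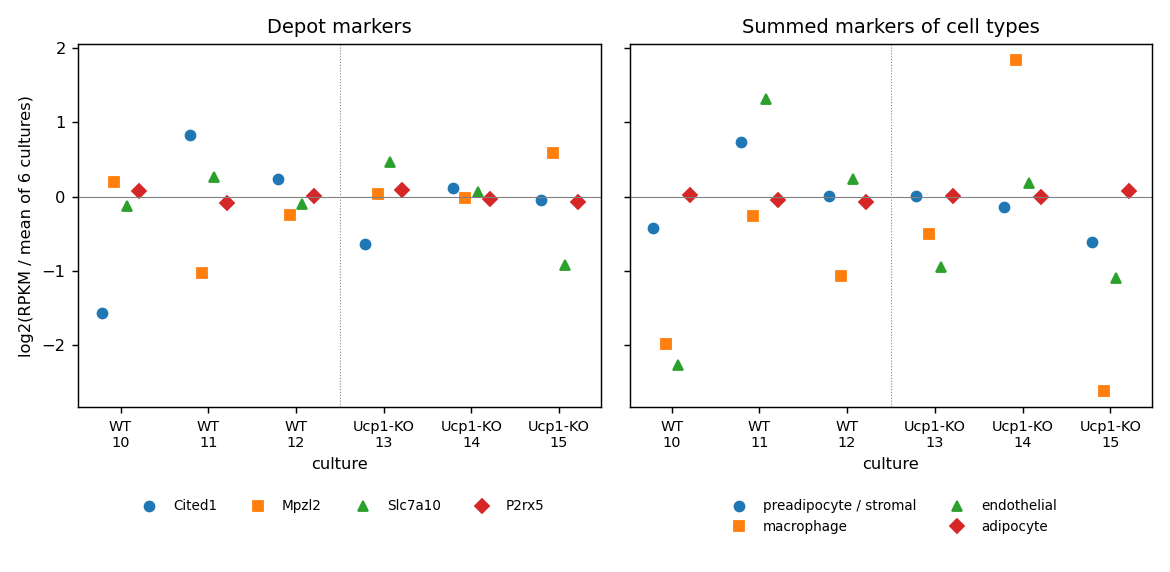
Log2 ratio of each culture to the mean of the 6 cultures for Cited1, Mpzl2, Slc7a10 and P2rx5 (left) and for the summed markers of 4 cell types (right), with WT to the left and Ucp1-KO to the right of the dotted line. P2rx5 and the adipocyte sum stay near 0, whereas Cited1 is lowest in WT 10, Mpzl2 in WT 11 and Slc7a10 in Ucp1-KO 15.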

How the data were processed

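RNA of 3 WT and 3 Ucp1-KO cultures was sequenced as single reads of 50 bases from unstranded TruSeq v2 libraries. The authors aligned them to build 38 of the mouse genome, counted uniquely placed reads on annotated transcripts and deposited abundances in RPKM, normalized to transcript length and mapped reads. The deposited table had 168326 rows, and the 28890 RefSeq rows of protein-coding and non-coding transcripts were used, with the highest row per gene for each marker and relative.

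Genotypes were taken from the sample titles. The authors used DESeq2, which needs counts. Here, limma 3.58.1 in R 4.3.3 (empirical Bayes with intensity trend) was run on log2(RPKM + 1) over the 16865 transcripts that averaged 0.5 RPKM or more, and p-values were adjusted over all of them by Benjamini-Hochberg with a threshold of 0.05. Each marker was also given an exact permutation test (two-sided) on its RPKM values. P-values measure the spread between 3 independent cultures a genotype.

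Read numbers were recovered from RPKM steps. Within 0.01 of a read, 99.96% of the tested transcripts had whole read numbers throughout. Tested on simulated data, the method found 6 of 6 totals to within 10 reads. In a simulation of this genotype comparison with 200 of 16865 transcripts changed 3-fold, limma called 184, of which 178 were truly changed, and called 0 when none was changed. In the cultures themselves limma called 0 transcripts. Ucp1, at 28.4% of the WT level in Ucp1-KO, was not called either (limma adjusted p 0.868). The share called among differences smaller than 3-fold, such as those of the depot markers, was not tested. Precision is limited by 3 cultures a genotype and, for markers with few reads, by depth. Cultures of the same genotype were not duplicates, as their reads differed far beyond sampling noise.

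The 10 markers, the families, the further markers and the cell type lists were chosen with earlier results of these data known. Named besides the markers were the most abundant genes of each family, of each further list (up to 3) and of each cell type list, family and further genes with an unadjusted p under 0.05, cell type markers at 0, and the nearest profiles of the 3 most variable markers. Mpzl1, Tbx15, Tbx18, Slc36a4, Lmx1b, Slc3a2, Lrp3, Slc36a1, Kcnk6, Gm48840, Ly6a, Dlk1, Col3a1, Postn, Prdm16, Dio2, Lum, Dcn, Tnnt3, Epsti1, Tnfrsf9, Hoxc9, Ear2, Cd40, Lep, Tcf21 and Hoxc10 were added with their values seen. Alternatives were 0.1 RPKM added in place of 1, no minimum or a minimum of 1 RPKM, 1 transcript per gene, median-of-ratios scaling, limma without trend, limma-voom on recovered reads, all RefSeq rows or all annotations, and leaving out each culture. Loci are from GENCODE M21 on GRCm38. Other steps used matplotlib 3.10.9, scipy 1.17.1, pandas 2.3.3 and numpy 2.4.6 under Python 3.11.15.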

Additional observations from a re-analysis of the deposited data

How the results depend on the processing

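No paired analysis was possible because the WT and Ucp1-KO cultures share no replicate number. In all 13 alternative fits, 0 depot markers and 0 further depot markers passed the adjusted threshold. Without a minimum abundance, limma called 22 transcripts in place of 0 and 1456 in place of 935 at an unadjusted p under 0.05. Leaving out 1 culture at a time gave 314 to 1760 of the latter. The number of depot markers at that unadjusted threshold was 0 in place of 1 with limma-voom on recovered reads, and 0 to 4 when 1 culture was left out. The direction of P2rx5 turned with median-of-ratios scaling (0.0084), which shifted the median of all transcripts by at most 0.07 (log2) in a culture. Leaving out 1 culture gave log2 differences of −0.018 to 0.10 for Slc36a2, −0.047 to 0.033 for P2rx5, −0.38 to 0.22 for Slc7a10 and −0.49 to 0.23 for Cited1, with both directions in each. Those of Lhx8, Kcnk3, Mpzl2 and Zic1 kept their direction in all fits, but leaving out 1 culture gave 0.16 to 0.37 for Kcnk3, 0.20 to 0.70 for Mpzl2 and −0.35 to −0.12 for Zic1. Lhx8 ranged from 0.25 to 0.39 with an unadjusted p from 0.0249 to 0.114. Why single cultures or limma-voom moved these values was not tested. The number of markers present remained 8, and over all RefSeq rows the share of Mpzl2, Lhx8 and Kcnk3 in their families was 48.8%, 79.8% and 87.6%. Tmem26 and Tbx1 had at most 19 and 2 reads in a culture, and every comparison rests on 3 cultures a genotype.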

Other observations

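For the 3 markers with the widest range over cultures, the genes with the most similar profile were found among 12259 genes, by the root mean square difference of the centred log2(RPKM + 1) values over the 6 cultures. The 6 cultures are few and share their libraries, so that the likeness is a description only. Cited1 was followed most closely by Sdf2l1, a protein of the endoplasmic reticulum, and by Pdgfd, a platelet-derived growth factor, with differences of 0.129 and 0.133 against a spread of 0.451 for Cited1 itself. Sdf2l1 was 9.83, 20.8 and 18.7 RPKM in WT and 11.8, 17.2 and 16.0 RPKM in Ucp1-KO, lowest in WT 10 and highest in WT 11 as Cited1 was. Mpzl2 was followed by Mme, a membrane peptidase, and by Ppargc1a, the coactivator of mitochondrial biogenesis, with differences of 0.105 and 0.126 against its own 0.410. Ppargc1a was 15.5, 7.12 and 10.5 RPKM in WT and 14.7, 11.8 and 16.0 RPKM in Ucp1-KO, with its lowest value in WT 11 and its highest in Ucp1-KO 15, the same cultures as for Mpzl2. Slc7a10 was followed by Gda, the guanine deaminase, and by Ptgfrn, a membrane protein, with differences of 0.0741 and 0.0995 against its own 0.381. Gda was 11.9, 15.8 and 13.6 RPKM in WT and 18.0, 15.2 and 8.07 RPKM in Ucp1-KO, highest in Ucp1-KO 13 and lowest in Ucp1-KO 15 as Slc7a10 was.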
